A study of Rattus norvegicus with 24 samples.

Results

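The comparison set hearts of rats that had lost their brown adipose tissue (BAT) and received leptin against hearts of rats with intact BAT that received vehicle. It comprised 12 libraries of 24, chosen by the surgery and treatment in the labels, 6 per group. All rats were Sprague-Dawley rats that had undergone cardiac ischemia-reperfusion, a temporary block of blood flow to the heart muscle. A cannula in a cerebral ventricle delivered the infusion, and messenger RNA from the heart septum was sequenced at day 28. One group carried intact BAT with vehicle and the other BAT ablation with leptin, so surgery and infusion differed together. No operated group with vehicle is among the listed samples. The effect of ablation alone and that of leptin in operated rats therefore cannot be told apart in this contrast. Groups with intact BAT and leptin, and with sympathetic denervation of BAT and leptin, held 6 rats each and served as reference points. The labels do not say how BAT was ablated and give no age. Each library is a different rat, numbered in the labels. Gene symbols could not be tied to the identifiers of the count table, so heart cell markers were not checked and genes are given by identifier and position.

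Brown adipose tissue burns fatty acids to make heat under the control of sympathetic nerves, and it also releases signals into the circulation. Leptin is a hormone of fat cells that reports energy stores to neurons of the hypothalamus. Through those neurons it raises sympathetic outflow, including that to BAT. The question behind the comparison was whether hearts of leptin-treated rats without BAT resemble those of rats that received no leptin.

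The 12 libraries held 77894258 to 118346627 reads assigned to genes. A difference not set by the labelled groups ran through them. The first principal component of log2 CPM (read counts scaled to a common library size) took 45.9% of the variance over the 24 libraries. It separated the 7 libraries with the highest rat numbers in the labels from the other 17, a boundary that an earlier look at the same libraries had shown. These high-numbered rats were unevenly spread over the groups, with 3 of 6 vehicle rats (replicates 4 to 6) but 1 of 6 ablation rats (replicate 6). On this component the high-numbered rats lay at 96.0 to 107.9 for vehicle and at 83.5 for ablation. The low-numbered rats lay at -44.3 to -6.34 for vehicle and at -61.3 to -21.0 for ablation. The labels do not say what the numbers stand for beyond the animal. Each main result below is therefore given with and without a 2-level term for high-numbered against low-numbered rats, called the rat-number term.

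**Figure D1:**
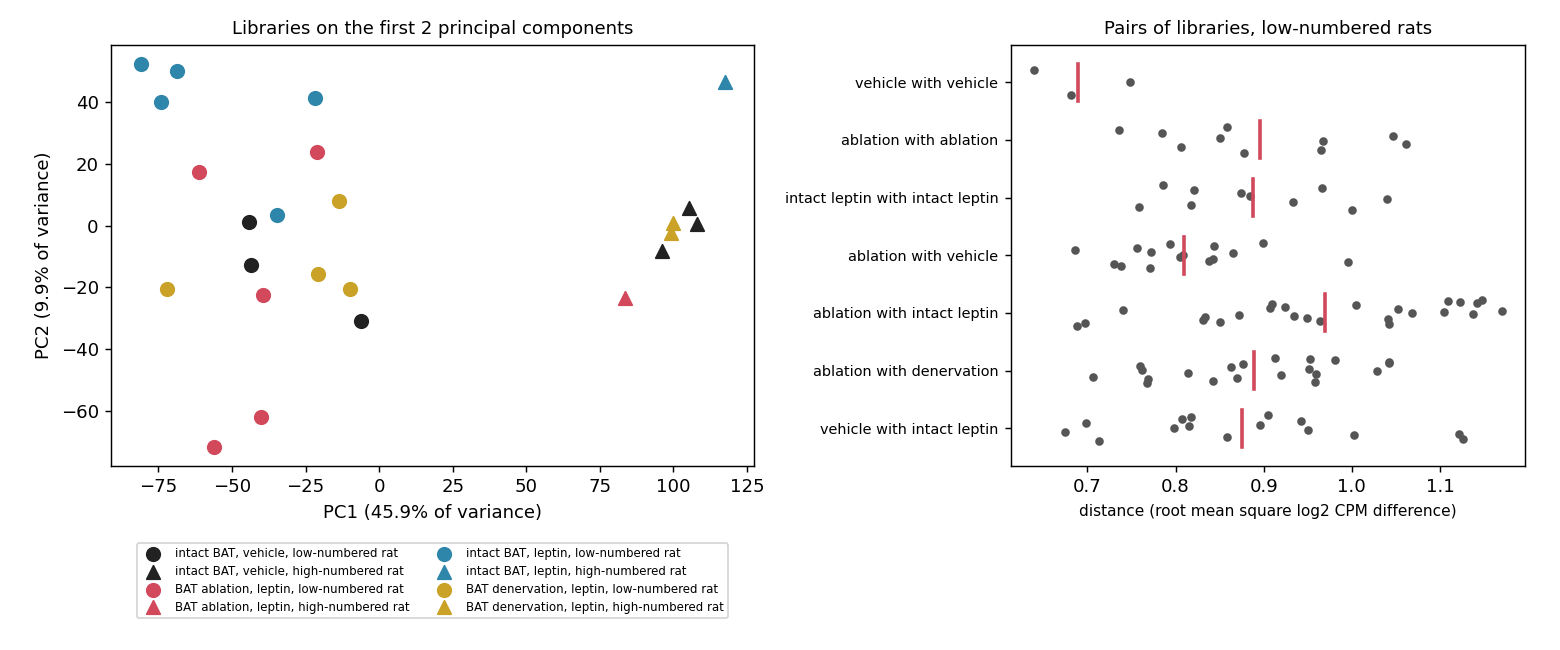
Left, the 24 libraries on the first 2 principal components of log2 CPM, coloured by group, with triangles for high-numbered rats and circles for low-numbered ones. Right, the root mean square log2 CPM difference between pairs of libraries of low-numbered rats, with 1 point per pair and a line at the mean. The high-numbered rats stand apart on the right of PC1, and the ablation libraries range from -71.7 to 23.9 on PC2. Pairs of ablation and vehicle libraries average 0.810, and pairs of ablation and intact leptin libraries average 0.970.

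No gene passed the test between ablation with leptin and vehicle. Of 17347 genes tested, 0 (0%) had an adjusted p below 0.05 by edgeR's quasi-likelihood test with Benjamini-Hochberg adjustment, and the smallest adjusted p was 0.457. At an unadjusted p below 0.05 there were 1892 genes (10.9%), against 867 if p-values were spread evenly. Of these, 959 (5.53% of the genes tested) were higher and 933 (5.38%) lower with ablation and leptin. The absolute difference had a median of 0.329 on the log2 scale, close to its median standard error of 0.326. For 47.2% of the genes the 95% interval of the difference lay within 1 log2 unit of 0, which bounds the difference to less than a fold of 2. For the other genes a difference of that size was not bounded, so 0 called genes do not show that the groups are equal.

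With the rat-number term, 0 of 17347 genes (0%) passed and the smallest adjusted p by edgeR was 0.267. The unadjusted count was 1487 genes (8.57%), of which 791 (4.56%) were higher and 696 (4.01%) lower. The median absolute difference was 0.180 and the median standard error 0.211, and 70.2% of the genes were bounded to less than a fold of 2. Within the low-numbered rats (5 ablation, 3 vehicle) no gene passed either, with 665 of 17890 genes at an unadjusted p below 0.05. That is less than the share of 0.05 that evenly spread p-values would give. The high-numbered rats held 1 ablation rat and gave no comparison of their own. Other tools called genes without the term. DESeq2 called 21 (5 higher, 16 lower) and limma-voom with sample quality weights called 9663. The weights that limma-voom gave were 2.01 to 2.90 for the 3 high-numbered vehicle rats and 0.360 to 0.588 for the 3 others. For ablation they were 0.363 for the high-numbered rat and 0.686 to 3.38 for the rest. That weighted fit thus set mostly high-numbered vehicle rats against low-numbered ablation rats. A straight-line term over rat number called 6804 genes, 3400 higher and 3404 lower.

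**Figure D2:**
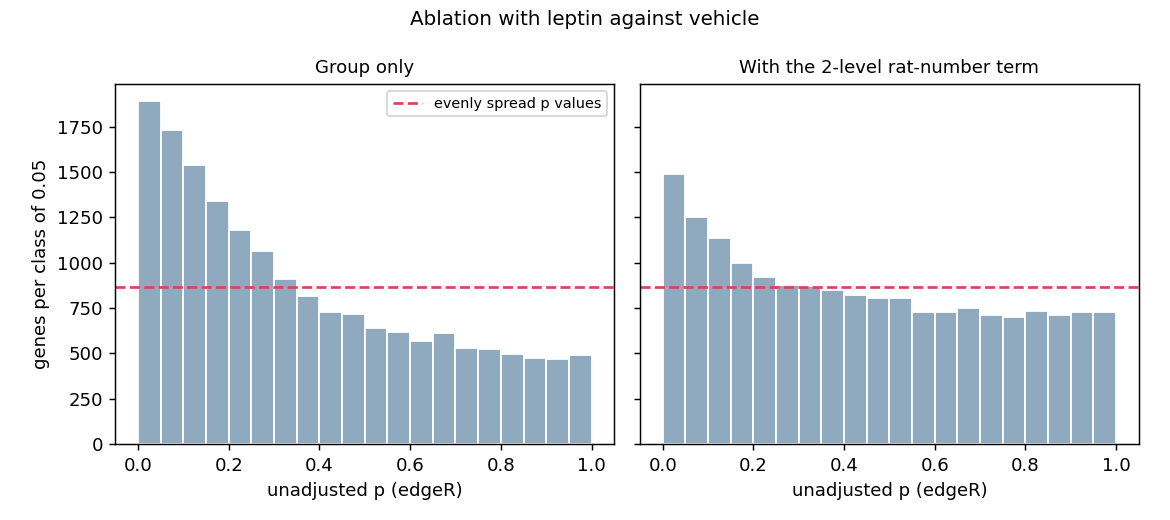
Unadjusted edgeR p-values of 17347 genes for ablation with leptin against vehicle, in classes of 0.05, without (left) and with (right) the 2-level rat-number term. The dashed line marks the count per class if p-values were evenly spread (867). The lowest class holds 1892 genes on the left and 1487 on the right.

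The number of genes at an unadjusted p below 0.05 depended on single rats. Without the term it was 871, 919 or 1095 when vehicle replicate 6, 5 or 4 was left out. It was 1118 without ablation replicate 1 and 1044 without ablation replicate 3. It was 4118 without ablation replicate 6, which leaves ablation with no high-numbered rat. With the term, leaving out ablation replicate 5 moved it to 2605, and the other 11 ways of leaving out a rat gave 1056 to 1559. Ablation replicate 5 also mattered for the calls. Without it 2 genes passed in the model without the term and 35 (7 higher, 28 lower) in the model with it. Without ablation replicate 1, 1 gene passed with the term, and 0 passed in each of the other leave-one-out fits of both models.

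Precision was lowest for genes under 1 CPM and highest for genes at 10 to 100 CPM. Among 3933 genes with a mean under 1 CPM, 7.93% were bounded to less than a fold of 2 and the median standard error was 0.630. Among 7491 genes at 10 to 100 CPM, 68.1% were bounded so, and 94.4% with the rat-number term. Among the 1256 genes at 100 CPM and over, 51.9% were bounded so, and 89.6% with the term. The share of genes at an unadjusted p below 0.05 was 6.97% under 1 CPM, 13.9% at 1 to 10 CPM, 10.7% at 10 to 100 CPM and 13.5% at 100 CPM and over. For moderately and highly expressed heart genes, the model with the term thus bounded most differences to less than a fold of 2, whereas for genes under 1 CPM a difference of that size was mostly not detectable.

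Separation of all 6 ablation libraries from all 6 vehicle libraries was rare. In 21 genes (0.121% of those tested) every ablation library lay above every vehicle library, and in 21 (0.121%) every one lay below. The identifiers named here are the 2 in each direction with the smallest p among genes with a mean of at least 1 CPM, and none of them passed the adjusted test. The vehicle libraries helped to choose them, so differences of the other leptin groups from vehicle are partly set by that choice. Positions are on mRatBN7.2. In whole septum, fewer cells of a type and less RNA per cell cannot be told apart.

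ENSRNOG00000017253 lies on the plus strand of chromosome 5 from 57748999 to 57752918, with 1927 bp of exons. The spans of 2 other annotated genes overlap its own. Whether their exons overlap was not checked, and counting without strand cannot separate reads where they do. Its level was 21.0, 20.6, 19.3, 16.8, 17.6 and 14.1 CPM in vehicle replicates 1 to 6 and 31.2, 25.0, 26.6, 31.7, 22.8 and 22.5 CPM in ablation replicates 1 to 6. Every ablation library lay above every vehicle library, and the high-numbered vehicle rats were the 3 lowest of their group. Group means were 26.7 ± 4.01 CPM with ablation and 18.2 ± 2.62 CPM with vehicle (SD, n = 6). The log2 difference was 0.55 ± 0.12 (SE) with an adjusted p of 0.457 by edgeR, and 0.49 ± 0.10 with an adjusted p of 0.292 with the rat-number term. Intact BAT with leptin averaged 26.1 ± 1.56 CPM and denervation with leptin 24.8 ± 2.44 CPM (SD, n = 6). Intact BAT with leptin differed from the same vehicle libraries with an adjusted p of 0.0482 by edgeR. For denervation with leptin against vehicle the log2 difference was 0.44 ± 0.12 (SE). Its adjusted p by edgeR was 0.9998, which was also the smallest of any gene in that contrast. For this gene the leptin-treated groups, with or without BAT, had means within 2 CPM of each other and all lay above the vehicle mean. That shared direction is partly set by the choice of the gene.

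ENSRNOG00000016037 lies on the minus strand of chromosome 3 from 148998122 to 149000031, with 1910 bp of exons. Its level in vehicle was 6.79, 6.43, 7.34, 7.75, 6.38 and 6.27 CPM in replicates 1 to 6. With ablation it was 19.5, 10.0, 21.7, 14.0, 5.65 and 10.9 CPM. Ablation replicates 1 and 3 were the highest, and replicate 5 lay below every vehicle library, so the groups overlapped through that library alone. The log2 difference was 1.00 ± 0.22 (SE) with an adjusted p of 0.457 by edgeR, and 1.00 ± 0.22 with an adjusted p of 0.369 with the rat-number term. Without ablation replicate 5 the difference was 1.16 and the adjusted p 0.0153. Intact BAT with leptin averaged 6.58 ± 0.758 CPM (SD, n = 6), and ablation exceeded it with an adjusted p of 0.0204 by edgeR. Vehicle and intact leptin libraries thus covered nearly the same range for this gene, from 5.80 to 7.75 CPM. Denervation with leptin averaged 8.87 ± 1.37 CPM (SD, n = 6), a log2 difference of 0.38 ± 0.22 (SE) from vehicle. Its libraries held 7.61 to 10.6 CPM, against a highest vehicle value of 7.75 CPM.

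ENSRNOG00000057501 lies on the minus strand of chromosome 8 from 70763614 to 70821875, with 2868 bp of exons. Vehicle libraries held 1.69, 1.66, 2.01, 3.80, 5.44 and 6.95 CPM in replicates 1 to 6, and ablation libraries 0.579, 1.14, 0.917, 0.904, 2.11 and 1.27 CPM. The 3 highest vehicle values were those of the high-numbered rats. Ablation replicate 5 was the one ablation library within the vehicle range. The log2 difference was -1.64 ± 0.36 (SE) with an adjusted p of 0.457 by edgeR. It was -1.31 ± 0.35 with the rat-number term (adjusted p 0.438) and -0.66 ± 0.35 among low-numbered rats (adjusted p 0.995). Intact BAT with leptin averaged 1.52 ± 0.394 CPM and denervation with leptin 1.42 ± 0.325 CPM (SD, n = 6), so all 3 leptin groups had means below vehicle. The log2 difference from vehicle was -1.24 ± 0.35 (SE) for intact BAT with leptin, with an adjusted p of 0.0730 by edgeR. For denervation with leptin it was -1.34 ± 0.35, with an adjusted p of 0.9998, which was also the smallest of any gene in that contrast. The direction shared with ablation is partly set by the choice of the gene.

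ENSRNOG00000021105 lies on the minus strand of chromosome 2 from 182761359 to 182795109, with 2896 bp of exons. Its vehicle levels were 0.883, 0.998, 2.17, 2.43, 3.45 and 4.41 CPM and its ablation levels 1.06, 0.462, 0.805, 0.333, 0.523 and 0.986 CPM in replicates 1 to 6. The groups overlapped through vehicle replicates 1 and 2. The log2 difference was -1.78 ± 0.42 (SE), with an adjusted p of 0.457 by edgeR, and -1.34 ± 0.35 with the rat-number term (adjusted p 0.425). Among low-numbered rats it was -1.08 ± 0.45 (adjusted p 0.995). Intact BAT with leptin averaged 0.642 ± 0.340 CPM (SD, n = 6) and differed from vehicle with an adjusted p of 0.0482 by edgeR. Denervation libraries held 0.912 to 2.36 CPM, within the vehicle range.

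**Figure D3:**
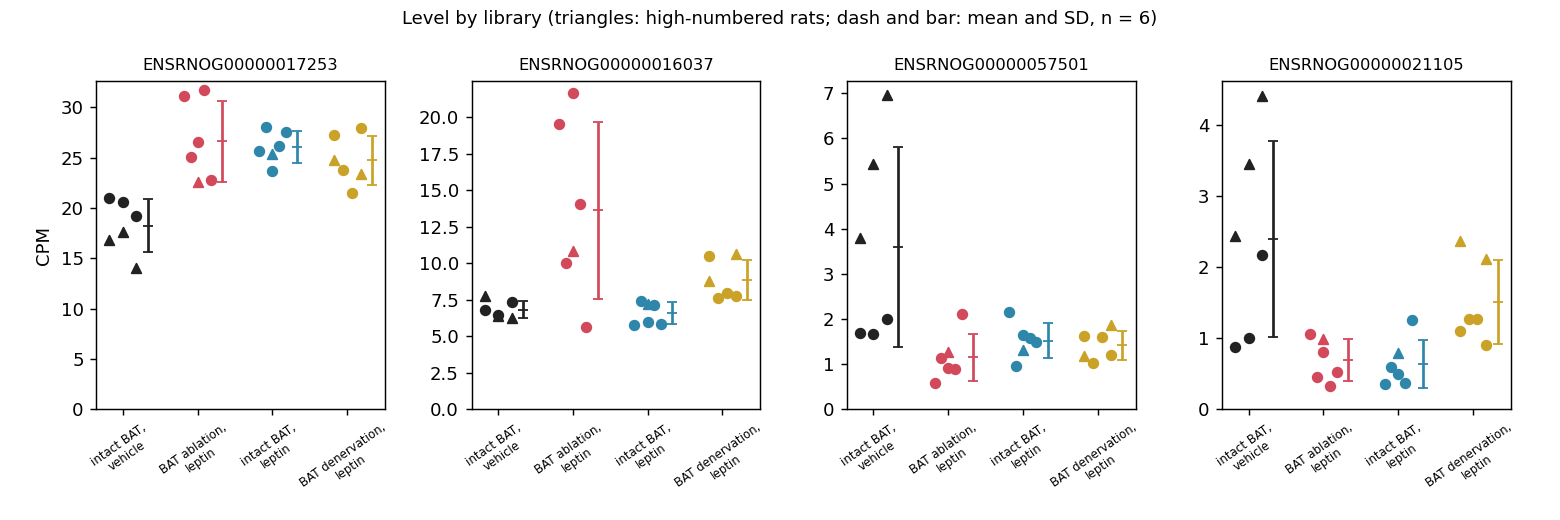
Level in CPM of the 4 named genes in each library of the 4 groups, with triangles for high-numbered rats and a dash with a bar for the group mean and SD (n = 6). ENSRNOG00000017253 is higher in each of the 3 leptin groups than in vehicle, and ENSRNOG00000016037 is spread from 5.65 to 21.7 CPM in the ablation group. In ENSRNOG00000057501 and ENSRNOG00000021105 the vehicle triangles are the 3 highest values of the group.

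How near the ablation hearts lay to vehicle hearts was also read from whole libraries. The distance between a pair of libraries was the root mean square log2 CPM difference over the tested genes. Among low-numbered rats, vehicle pairs lay 0.640 to 0.748 apart (mean 0.690, 3 pairs). Ablation pairs lay 0.736 to 1.06 apart (mean 0.896, 10 pairs). Pairs of an ablation and a vehicle library lay 0.686 to 0.995 apart (mean 0.810, 15 pairs). The ablation libraries thus differed among themselves by as much as they differed from vehicle. Pairs of an ablation and an intact leptin library had a mean of 0.970 (25 pairs), and pairs of an ablation and a denervation library one of 0.889 (20 pairs). Intact leptin pairs lay at a mean of 0.888 (10 pairs), and pairs of a vehicle and an intact leptin library at one of 0.875 (15 pairs). Denervation libraries lay at a mean of 0.769 from vehicle (12 pairs) and of 0.939 from intact leptin (20 pairs) and at one of 0.848 from each other (6 pairs). Each of the 3 leptin groups thus lay nearer on average to vehicle than its own members lay to each other. The vehicle libraries were the least spread. Pairs share libraries, so these values are descriptions without a test.

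Each of the 5 low-numbered ablation rats was nearer on average to the low-numbered vehicle rats than to the low-numbered intact leptin rats. The mean distance to vehicle and to intact leptin was 0.845 and 1.09 for ablation replicate 1 and 0.738 and 0.926 for replicate 2. It was 0.826 and 1.07 for replicate 3, 0.892 and 0.918 for replicate 4, and 0.746 and 0.849 for replicate 5. Replicates 4 and 5 showed the smallest gaps. All 5 were also nearer on average to vehicle than to the other ablation rats. Nearness to vehicle therefore cannot be told apart from the smaller spread of the 3 vehicle rats, and it was not particular to ablation. Among high-numbered rats, ablation replicate 6 lay at a mean of 0.738 from the 3 vehicle rats, 0.992 from the 1 intact leptin rat and 0.653 from the 2 denervation rats. Pairs of a low-numbered and a high-numbered rat lay farther apart, at a mean of 1.36 for ablation with vehicle and of 1.22 within the vehicle group.

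The same question was put to the genes called between intact BAT with leptin and vehicle. Intact BAT with leptin against vehicle gave 117 genes (0.674%) by edgeR's adjusted test, 89 higher and 28 lower with leptin. These genes were chosen with the vehicle and intact leptin libraries, and the ablation contrasts share those libraries. For the 89 higher genes the median log2 difference from vehicle was 0.92 with intact BAT and 0.19 with ablation. For the 28 lower genes it was -1.31 with intact BAT and -0.25 with ablation. Over all genes tested the median for ablation against vehicle was 0.03. With the rat-number term the medians for ablation were 0.07 over the 722 genes higher and 0.04 over the 341 genes lower with leptin. Because vehicle libraries helped to choose the genes, a difference from vehicle in the direction of leptin is partly set by the choice.

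By library, the median over the 89 genes, relative to the vehicle mean, was 0.58 to 1.14 in the intact leptin rats. In ablation replicates 1 to 6 it was 0.02, 0.20, -0.12, 0.60, 0.35 and 0.00. In vehicle rats it ran from -0.18 to 0.25, with 0.25, 0.21 and -0.11 in the low-numbered rats and -0.03, -0.11 and -0.18 in the high-numbered ones. The vehicle group held 3 high-numbered rats of 6 and ablation 1 of 6. These medians by library were not adjusted for rat number. Ablation replicates 1, 2, 3 and 6 fell within the vehicle range, replicate 5 lay above it and replicate 4 reached the low end of the intact leptin range. Over the 28 genes the ablation values were 0.08, -0.34, 0.04, -0.55, -0.69 and -0.01, with vehicle rats at -0.53 to 0.41 and intact leptin rats at -1.73 to -0.71. The low-numbered vehicle rats held -0.53, -0.49 and -0.05 and the high-numbered ones 0.15, 0.41 and 0.36. Ablation replicates 4 and 5 were again the pair nearest to intact leptin. These replicates also had the highest shares of mitochondrial reads among ablation libraries, 45.9% and 40.2%, while the intact leptin libraries held 24.4% to 41.1%, and the part of that share in the gene levels was not tested. Denervation rats held 0.10 to 0.51 for the 89 genes.

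**Figure D4:**
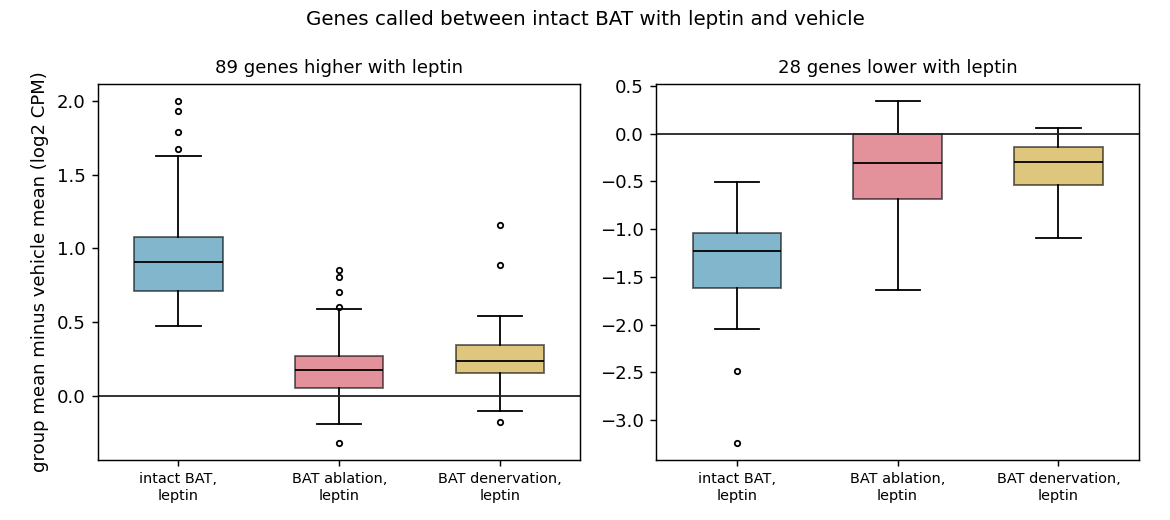
Group mean minus vehicle mean, in log2 CPM, of the 117 genes called between intact BAT with leptin and vehicle (boxes show quartiles, lines medians, whiskers up to 1.5 times the box). The intact leptin group was used to choose the genes. The medians are 0.91, 0.17 and 0.24 for intact BAT, ablation and denervation on the left, and -1.23, -0.31 and -0.30 on the right.

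Because the genes were chosen by the difference between intact leptin and vehicle, the ablation group was tested against the midpoint of those groups. By the design alone, the estimate of that contrast has a correlation of 0 with the one that chose the genes (0.041 with the rat-number term). That value assumes the same spread in each group. Among low-numbered rats, vehicle pairs lay at a mean distance of 0.690 and intact leptin pairs at one of 0.888. The test was therefore not shown to be free of the choice of genes. This test was added after the values were seen. Of the 117 genes, 105 had the ablation mean on the vehicle side of the midpoint (83 of 89 and 22 of 28). None passed edgeR's adjusted test over all genes (0% called in either direction), and at an unadjusted p below 0.05 there were 39 on the vehicle side against 2 on the other. At that threshold 1477 of all genes tested (8.51%) lay above the midpoint and 817 (4.71%) below it. With the rat-number term, intact leptin against vehicle gave 1063 genes (6.13%), of which 994 had ablation on the vehicle side. Of these genes 12.4% passed as nearer to vehicle (45 of 722 higher and 87 of 341 lower with leptin) and 0 as nearer to intact leptin. Over all genes tested, 436 (2.51%) passed above the midpoint and 184 (1.06%) below it.

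That share of 12.4% rested on few rats, and the set of genes itself changed with the rats. Without vehicle replicate 3 the set held 98 genes (13 passed), without intact leptin replicate 2 it held 258, and without intact leptin replicate 5 it held 2219. It was 0% (0 genes) without ablation replicate 3, 0.0993% (1 gene) without replicate 1 and 2.22% (17 genes) without replicate 6. It was 5.70% (49 genes) without ablation replicate 2, 5.88% without vehicle replicate 1 or 2 (44 or 28 genes) and 7.31% (111 genes) without intact leptin replicate 3. It was higher without ablation replicate 4 (20.7%, 353 genes), without ablation replicate 5 (32.3%, 390 genes) and without intact leptin replicate 5 (21.3%, 472 genes). Leaving out any other library of these 3 groups gave 8.35% to 16.9% of the genes. In these fits 0 to 5 genes passed as nearer to intact leptin. Intact leptin replicates 1 to 4 lay highest on the second principal component of the low-numbered intact leptin rats, and without them, an alternative chosen after seeing the data, the set shrank to 18 genes, 17 of them on the vehicle side and 0 past the test. Within low-numbered rats no gene was called between intact leptin and vehicle, so the test could not be made there.

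Ablation with leptin against intact BAT with leptin gave 525 genes (3.03%), 323 higher and 202 lower with ablation, and 3219 (18.6%) with the rat-number term. Here the position of vehicle was read in the same way. Among the 323 genes the median difference from intact leptin was 0.97 for ablation, while ablation exceeded vehicle by a median of 0.33. Among the 202 genes ablation was lower than intact leptin by a median log2 difference of -0.77 and than vehicle by one of -0.12. Vehicle lay on the ablation side of the midpoint in 233 of 323 and in 174 of 202 genes, with 0 genes past the test in either model. No single gene thus placed vehicle nearer to either group past the test.

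Reads on the mitochondrial chromosome, a large share of RNA in heart muscle, varied more among ablation hearts than among vehicle hearts. Their share was 36.4%, 34.9%, 36.6%, 35.2%, 33.3% and 35.1% of assigned reads in vehicle replicates 1 to 6. It was 23.1%, 37.8%, 32.2%, 45.9%, 40.2% and 28.9% in ablation replicates 1 to 6. Ablation values lay on both sides of the vehicle range, and none lay within it. Intact leptin libraries held 24.4% to 41.1% and denervation libraries 23.7% to 29.8%. Values outside the vehicle range were thus not particular to ablation. Means were 34.7% ± 8.24 with ablation and 35.2% ± 1.17 with vehicle (SD, n = 6). The difference of -0.56 percentage points gave p = 0.883 in an exact two-sided permutation test, whose smallest possible p is 0.00216. Without ablation replicate 1 or 6 the difference was 1.76 or 0.59 in the other direction, with exact permutation p of 0.545 and 0.870. Restricted to the low-numbered rats (5 against 3) it was -0.11 points, with an exact permutation p of 1 (smallest possible 0.0357). A test of the spread itself was not among those run.

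Of 22 tested genes on the mitochondrial chromosome, 5 had a higher and 17 a lower mean with ablation, 0 passed edgeR's adjusted test and 2 (9.09%) had an unadjusted p below 0.05, against 10.9% of all genes. With the rat-number term 8 were higher and 14 lower, and 4 (18.2%) had an unadjusted p below 0.05, against 8.57% of all genes. Their median log2 difference was -0.23, and -0.04 with the rat-number term. The most abundant of them, at 5323 to 6867, had a mean of 112211 CPM with ablation and 123214 CPM with vehicle.

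Genes were also split into 5 classes by exonic length. The length gradient of each library is the median log2 CPM, centred per gene, in the class of longest genes less the median in the class of shortest genes. It was -0.12, -0.22, -0.21, 0.17, 0.36 and 0.52 in vehicle replicates 1 to 6 and -0.39, -0.23, -0.42, 0.06, -0.20 and 0.34 in ablation replicates 1 to 6. In both groups the high-numbered rats held the highest values. Means were -0.14 ± 0.29 with ablation and 0.08 ± 0.31 with vehicle (SD, n = 6). The exact two-sided permutation test gave p = 0.212, or 0.424 after adjustment over the 2 library values tested. Restricted to the low-numbered rats (5 against 3) the ablation mean was lower by a difference of -0.05, with an exact permutation p of 0.643. Gene by gene, the median log2 difference ran from 0.13 in the shortest class to -0.09 in the longest, and from 0.04 to -0.03 with the rat-number term. The part of this gradient in single gene differences was not tested beyond a model with the term and the gradient together, which called 0 genes.

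**Figure D5:**
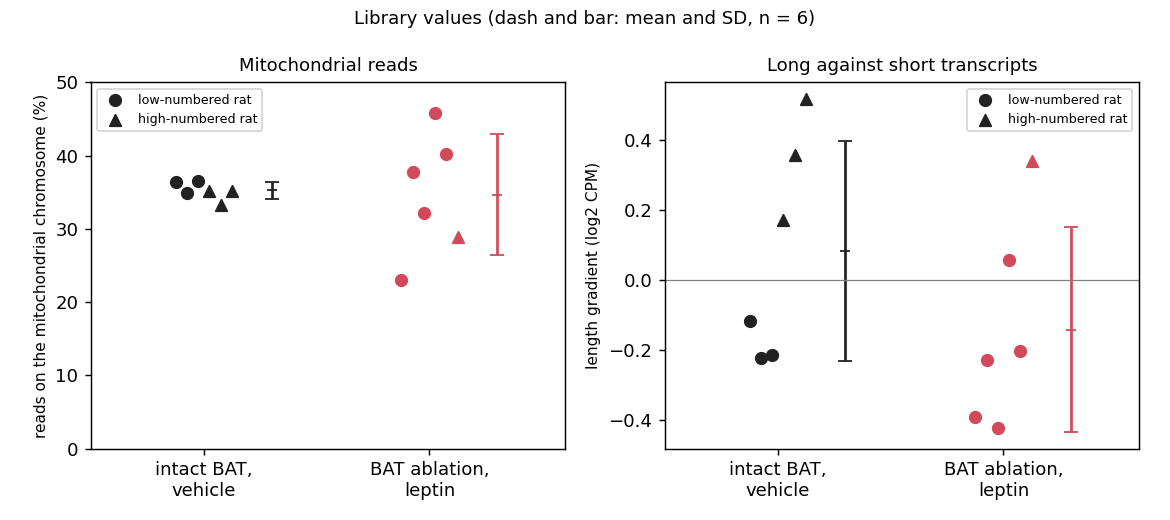
Share of reads on the mitochondrial chromosome (left, in percent) and length gradient (right, in log2 CPM) of the 12 libraries, with triangles for high-numbered rats and a dash with a bar for the mean and SD (n = 6). Vehicle shares stay between 33.3% and 36.6% and ablation shares run from 23.1% to 45.9%. The 4 triangles are the highest length gradients in their groups.

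Among the numbered chromosomes and X, the median log2 difference between ablation with leptin and vehicle stayed between -0.05 and 0.08. The share of genes at an unadjusted p below 0.05 lay between 8.99% on X and 13.2% on chromosome 17, around the 10.9% of all genes tested. The contrast of denervation with leptin against vehicle, which shares the vehicle libraries, also called 0 genes (348 at an unadjusted p below 0.05) and had a median absolute difference of 0.180. With the rat-number term it called 0 genes (659 at an unadjusted p below 0.05), with a median of 0.132. Ablation against denervation, both with leptin, called 0 genes (778 at an unadjusted p below 0.05), with 53.7% of the genes bounded to less than a fold of 2. With the rat-number term that contrast called 0 genes (1482 at an unadjusted p below 0.05), and 71.6% were bounded so. Evenly spread p-values would give 867 genes at that level in each of these contrasts.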

How the data were processed

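Paired-end mRNA sequencing of heart septum gave 1 library per rat. The authors deposited whole-number read counts for 30562 genes, used here as counts. Per the file header they were made with featureCounts 2.0.6 on Ensembl 113 of mRatBN7.2, in paired mode without strand or multimapping options. Per the submitters' processing notes, STAR 2.7.10a and featureCounts 2.0.2 were used, so the version differs between sources. Genes held exactly 2 reads in 19013 cases and exactly 1 read in 5161, as when mates are counted separately, so depth in reads overstates the number of fragments. Reads on exons shared by overlapping genes, or on near-identical copies, cannot be separated. Another 5 count columns belong to no sample listed here and were left out.

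Genes were kept with filterByExpr over the 4 groups, scaled by TMM and fitted with edgeR 4.0.16 (robust quasi-likelihood, R 4.3.3) on all 24 libraries, with Benjamini-Hochberg adjustment at 0.05. Standard errors and 95% intervals came from the F statistic. Principal components and distances were taken on log2 CPM (prior count 2). Values of single libraries were compared by exact permutation (scipy 1.17.1). The members, lists and the rat-number boundary were chosen with earlier results of these data known. Alternatives used DESeq2 1.42.0, limma 3.58.1 and sva 3.50.0 (1 surrogate variable). Of the fits, only edgeR without the rat-number term was run on simulated counts. Those counts held no difference between high-numbered and low-numbered rats, and their spread came from the model with the term. The other fits and the midpoint test were not tested in this way.

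Reference tables paired 0 of the 30562 identifiers with a symbol. The prepared gene lists, the cell type markers and the rule by symbol could therefore not be run. In their place the rule named the 2 higher and 2 lower identifiers of smallest p whose mean reached 1 CPM.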

Additional observations from a re-analysis of the deposited data

How the results depend on the processing

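The count of 0 called genes between ablation with leptin and vehicle stayed at 0 with DESeq2 size factors, upper quartile scaling, no mitochondrial genes, no filter, a mean of 1 CPM, only the 12 libraries, a surrogate variable, the rat-number term with or without the length gradient, only low-numbered rats, a threshold of 0.1, and without ablation replicates 1 and 3 (chosen after seeing the data). Of 17347 genes, 21 were called with DESeq2, 9663 with limma-voom and 6804 with a linear rat number. In these 3 fits each of the 4 named genes passed. They were chosen by smallest p in the same contrast and the same counts, so their passing is no separate evidence. The cause was not tested, and the library weights given above belong to the limma-voom fit alone. Leaving out each library gave 0 to 2 called genes, and 0 to 35 with the rat-number term. The replicate number as a block gave 1 called gene (lower), and 0 with the rat-number term as well. Same-numbered libraries deviated with correlations of -0.34 to 0.67, over 0.1 in 4 of 6 pairs, and 4 of 6 ablation libraries correlated best with the vehicle library of their own number. Because 2 pairs lay under 0.1 (-0.34 and 0.09) and the labels give no shared origin, the numbers were not taken to pair the rats. The block raised the genes at an unadjusted p below 0.05 from 1892 to 4390 (1727 with the rat-number term as well). Replicate 6 was a high-numbered rat in each of the 4 groups, so the block shares part of the rat-number split. The part of that overlap in the rise was not tested. The share of genes bounded to less than a fold of 2 was 47.2%, 70.2% with the rat-number term and 50.8% with the 12 libraries alone. Among the genes called between intact leptin and vehicle, the share that passed as nearer to vehicle was 0%, and 12.4% with the rat-number term. With the term and each library left out, the share was 0% to 32.3%. It was 0% without intact leptin replicates 1 to 4, and the low-numbered rats alone gave no such genes and so no value. The mitochondrial share difference with each library left out ranged from -2.80 to 1.76 percentage points and reversed without ablation replicate 1 (1.76) or 6 (0.59). The length gradient difference with each library left out ranged from -0.32 to -0.14. It was -0.26 with 10 classes and -0.05 with only low-numbered rats. Genes under 1 CPM had the largest median standard error of the abundance classes, 0.630.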
